A study of Rattus norvegicus with 109 samples.

Results

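Il1a, Il1b and Il10, which encode the cytokines interleukin-1 alpha, interleukin-1 beta and interleukin-10, were 3 of the 19 transcripts measured in the nucleus of the solitary tract (NTS) of the rat. They were taken by gene name from the table of normalised values, and all of its 109 sections were used. The NTS is the brainstem region that receives the first input from the baroreceptors and takes part in setting blood pressure. Each section was cut out by laser capture after its position was checked by DAPI and NeuN fluorescence, and transcripts were quantified by PCR on microfluidic chips with 30 amplification cycles. The spontaneously hypertensive rat (SHR), an inbred model of hypertension, was compared with the Wistar Kyoto rat (WKY), its normotensive comparison strain. The 2 strains were age-matched, and no age is given in the labels.

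Each strain had 3 procedures. Cocktail rats received a 25 µL injection of locked nucleic acid inhibitors of 2 microRNAs, miR-135a and miR-376a, mixed 1:1 from 10 µM in artificial cerebrospinal fluid, the only active mix that the labels' protocol describes. Scrambled rats received a locked nucleic acid oligonucleotide matched to no known transcript, and Sham rats had a cannula and an empty needle without injection. By the animal numbers in the labels, SHR comprised 5 Cocktail rats (17 sections), 2 Scrambled rats (15 sections) and 1 Sham rat (27 sections). WKY comprised 4 Cocktail rats (27 sections), 5 Scrambled rats (15 sections) and 3 Sham rats (8 sections). SHR Cocktail rats 4598 and 4602 and SHR Scrambled rat 4604 had 1 section each. Sections of WKY rat number 4614 carry 2 procedures, Cocktail and Scrambled, and entered as a separate set in each, which makes 20 sets from 19 numbers. A group size of 4 to 5 rats stated for the series conflicts with the animal numbers, which were followed. Labels do not say which sections shared a chip or run, so effects of strain and of run cannot be told apart.

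Interleukin-1 alpha and interleukin-1 beta are pro-inflammatory cytokines that act through the same receptor. The alpha form is held in cells and released as an alarm signal when they are damaged, whereas the beta form is made as an inactive precursor and cut by caspase-1, mainly in microglia and macrophages. Interleukin-10 is an anti-inflammatory cytokine that restrains the production of both. In a laser-captured section, fewer cells of a type and less transcript per cell cannot be told apart. Of the cell type markers considered, the panel held only Th and Dbh, for noradrenergic neurons. It held 0 of the other 16, for microglia, macrophages, astrocytes, neurons in general, oligodendrocytes and endothelium. Which cells gave the interleukin transcripts was therefore not measured.

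The mature sequences of the inhibited microRNAs are shown because the Cocktail was directed at them, with the seed (bases 2 to 8) in capitals. Both arms of each hairpin are given, since the labels name no arm. The sequences are from RefSeq, build GRCr8, and none of the 4 shares a seed with another.
rno-miR-135a-5p: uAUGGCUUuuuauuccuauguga
rno-miR-135a-3p: uGUAGGGAuggaagccaugaaa
rno-miR-376a-5p: gGUAGAUUcuccuucuaugag
rno-miR-376a-3p: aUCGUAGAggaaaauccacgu

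Il1a and Il1b lie next to each other on chromosome 3 with 0 protein-coding genes between them in the RefSeq table, and Il10 lies on chromosome 13. The promoter windows of the neighbouring pair are shown because their transcripts moved together in 1 rat, described further on. Each runs from 250 bases before to 50 bases after the start of the gene (RefSeq, build GRCr8, minus strand). Capitals mark TATAAA, and in Il1a also TGANTCA, the letters bound by AP-1, the dimer of Fos and Jun proteins.
Il1a, chr3:136989968-136990267: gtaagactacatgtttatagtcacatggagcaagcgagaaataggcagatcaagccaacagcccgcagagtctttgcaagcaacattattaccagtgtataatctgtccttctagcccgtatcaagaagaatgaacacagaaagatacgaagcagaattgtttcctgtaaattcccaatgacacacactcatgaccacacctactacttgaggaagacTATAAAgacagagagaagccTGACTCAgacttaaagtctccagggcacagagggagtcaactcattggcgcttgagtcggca
Il1b, chr3:137036532-137036831: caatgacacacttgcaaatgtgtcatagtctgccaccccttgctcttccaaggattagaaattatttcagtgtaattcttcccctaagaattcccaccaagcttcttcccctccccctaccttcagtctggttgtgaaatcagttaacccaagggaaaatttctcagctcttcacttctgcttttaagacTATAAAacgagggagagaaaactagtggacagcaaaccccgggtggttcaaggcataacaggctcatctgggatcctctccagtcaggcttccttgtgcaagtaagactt
TATAAA began 32 bases before the start in Il1a and 60 bases before it in Il1b, and on either strand it is found in 14.2% of the 33469 promoters of the table. Il1a has a further TATAAA on the opposite strand, left in lower case. TGANTCA began 12 bases before the start in Il1a, was not found in the Il1b window, and is found in 7.33% of promoters. An NF-kB consensus was found in neither window and in 7.51% of promoters. A match is only a match of letters, and these windows say nothing of binding in these rats.

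Levels are given as minus ΔCt on the log2 scale: the cycle number (Ct) of a transcript subtracted from a constant of the same section, so that 1 unit is 1 cycle, or a doubling if every cycle doubles the product. Levels of different genes come from different primer pairs. A difference between genes is therefore compared between sections and rats, and its value of 0 marks equal cycle numbers, not equal numbers of transcripts. The median Ct of a section, which stands for its RNA input, ran from 10.8 to 23.1. The 9 sections with a median above 18 were all WKY. Il1a had a value in 106 of the 109 sections, Il10 in 106 and Il1b in 65. Among the 18 genes described here, Il1a and Il1b had the largest and second largest SD of sections within a rat (2.26 and 2.12), and Il10 ranked sixth with 1.81.

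Il10 was lower in SHR than in WKY. Under Cocktail, the mean per rat was -0.07, -2.23, -2.43, -1.24 and -1.71 in SHR rats 1694, 1696, 4595, 4598 and 4602. It was 0.47, 0.83, 1.13 and 0.30 in WKY rats 1701, 4607, 4612 and 4614. Every SHR Cocktail rat was below every WKY Cocktail rat. The group means of Il10 ran from WKY Cocktail (0.68 ± 0.37, SD), WKY Sham (0.54 ± 0.32) and WKY Scrambled (0.19 ± 1.91) to SHR Scrambled (-1.13 ± 0.52), SHR Cocktail (-1.54 ± 0.94) and SHR Sham (-2.46), each step within the larger SD beside it. The Cocktail difference was -2.22 (SE 0.75), which is 4.65-fold if product doubles per cycle, with an adjusted p of 0.0263 (limma on rat means, 5 against 4 rats, Benjamini-Hochberg over 19 genes). In that comparison 36.8% of the 19 genes passed the threshold of 0.05.

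Over the control procedures, Scrambled and Sham averaged, Il10 was also lower in SHR, by -2.16 (SE 0.79, adjusted p = 0.0331, limma, 3 against 8 rats). The SHR means were -1.50 and -0.76 in Scrambled rats 4600 and 4604 and -2.46 in Sham rat 4596. The WKY Sham means were 0.29, 0.43 and 0.91 in rats 4611, 4613 and 4617. WKY Scrambled rats were the most scattered, at -2.44, -1.13, 2.19, 1.14 and 1.18 in rats 1700, 4610, 4614, 4615 and 4618. The groups overlapped through WKY rats 1700 and 4610. In rat 1700 a single section at -10.37, read at cycle 28.5, stood apart from the other 3 sections, which lay between -1.12 and 0.90. Within Scrambled alone the Il10 difference of -1.32 did not pass (SE 0.93, adjusted p = 0.252, limma, 2 against 5 rats), and it was -1.98 (adjusted p = 0.0414) without WKY rat 1700 and -0.82 (adjusted p = 0.462) without WKY rat 4614. Of the 19 genes, 47.4% passed over the control procedures and 42.1% under Scrambled. The call under Cocktail was lost when any of rats 4595, 4602, 4607 or 4612 was left out (adjusted p from 0.0511 to 0.066). The call over controls was lost without rat 4600 (-1.98) or rat 4617 (-2.07, adjusted p = 0.0607, limma). Rat 4596, the SHR control rat with the lowest Il10, is the only SHR Sham rat and could not be left out. Without it only the comparison within Scrambled remains, which did not pass. All 3 gaps of Il10 lay in WKY Cocktail, and when these were filled with the lowest Il10 level of the table the Cocktail difference was -0.96 (adjusted p = 0.47, limma). By exact permutation of rats, Il10 passed under Cocktail (adjusted p = 0.0335) and not over the controls (0.226), and other settings that ended a call are given in the closing section.

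**Figure D1:**
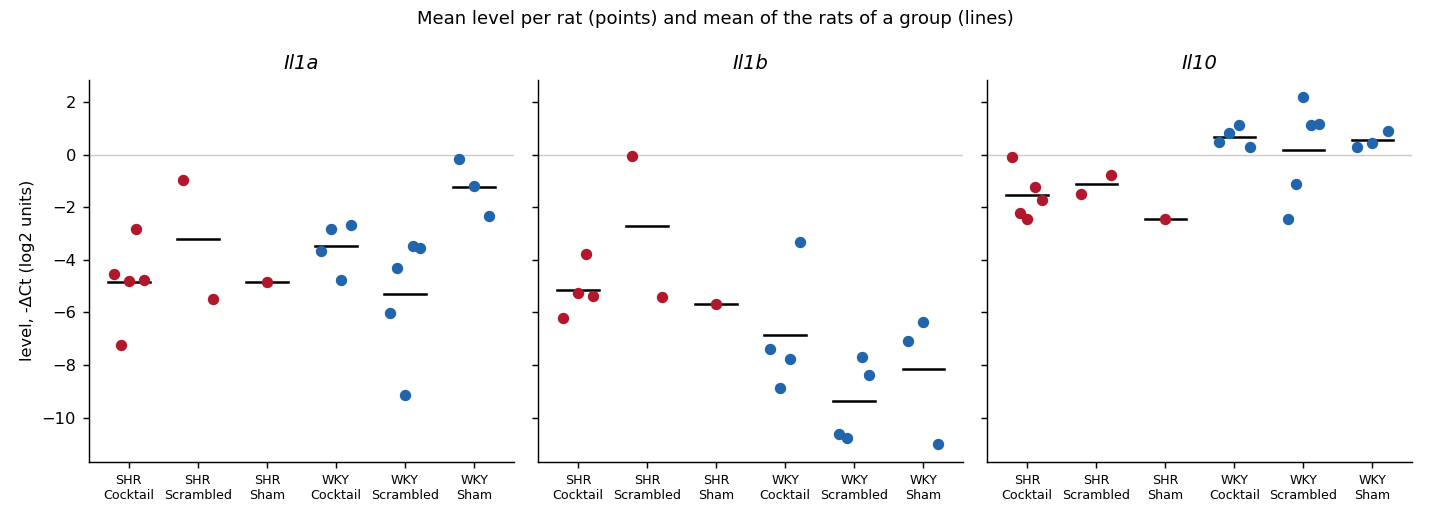
Mean level per rat (points, minus ΔCt in log2 units on the vertical axis) of Il1a, Il1b and Il10 in the 6 groups, with the mean over rats as a line. Il10 of all 5 SHR Cocktail rats lies below all 4 WKY Cocktail rats, and SHR Scrambled rat 4600 lies near 0 for Il1b.

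Il1b was higher in SHR than in WKY under the control procedures. The SHR means were -0.04 and -5.42 in Scrambled rats 4600 and 4604 and -5.70 in Sham rat 4596. The WKY Scrambled means were -10.63, -10.77, -7.71 and -8.36 in rats 1700, 4610, 4615 and 4618, and rat 4614 had no Il1b value. The WKY Sham means were -7.08, -6.38 and -11.02 in rats 4611, 4613 and 4617. Rat 4604 rested on 1 section and rat 4611 on 1 Il1b value. Every SHR control rat was above every WKY control rat with a value. The difference was 4.55 over both controls (SE 1.39, adjusted p = 0.0135, limma) and 6.64 under Scrambled alone (SE 1.67, adjusted p = 0.00362, limma), beside the 47.4% and 42.1% of genes that passed. Without rat 4600 both calls were lost, with 3.21 (adjusted p = 0.0848) and 3.95 (adjusted p = 0.159). With gaps set at cycle 30 both also missed the threshold (adjusted p = 0.392 and 0.0519, limma). By exact permutation of rats, both p-values before adjustment, 0.0167 and 0.0667, were the smallest that these numbers of rats allow, so under Scrambled this test could not pass.

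Under Cocktail the strains overlapped for Il1b. The 4 SHR rats with a value had means of -6.22, -5.28, -3.78 and -5.37 (rats 1694, 4595, 4598 and 4602). The WKY rats had -7.39, -8.86, -7.79 and -3.33 (rats 1701, 4607, 4612 and 4614). Rats 4598, 4602 and 4612 had 1 Il1b value each. The difference of 1.68 did not pass (SE 1.36, adjusted p = 0.365, limma, 95% interval from -1.21 to 4.58), and it was 2.85 without WKY rat 4614 and 1.01 without rat 4607. The WKY rat that reached the SHR range, 4614, did so through 1 of its 3 sections with a value, at 2.84. The other 2 were at -5.89 and -6.94. Ordered by group mean, Il1b ran from SHR Scrambled (-2.73 ± 3.80, SD, n = 2 rats), SHR Cocktail (-5.16 ± 1.02, n = 4) and SHR Sham (-5.70, n = 1) to WKY Cocktail (-6.84 ± 2.42, n = 4), WKY Sham (-8.16 ± 2.50, n = 3) and WKY Scrambled (-9.37 ± 1.56, n = 4). Each step was smaller than the larger SD of the groups beside it.

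The latest cycle at which a value was listed differed between the strains, and this touches every Il1b level. The latest Il1b value was at cycle 21.7 in SHR and at cycle 29.0 in WKY, although each strain had 22 sections without a value. In WKY, 13 of 28 Il1b values were later than the latest one in SHR. The same held for the whole panel: the latest value of any gene was at cycle 24.8 in SHR and 29.0 in WKY, and it was later in WKY for 19 of 19 genes. For Il1a the latest values were at 24.2 and 26, and for Il10 at 20.8 and 28.5. When values later than the lower of the 2 limits were left out for each gene, the Il1b difference over controls was 2.97 (adjusted p = 0.0547, limma) and under Scrambled 4.90 (adjusted p = 0.0108, limma). This setting was chosen after seeing the data. Why the limits differ was not tested.

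Il1a did not separate the strains. Ordered by group mean, it was highest in WKY Sham (-1.23 ± 1.10, SD, n = 3 rats), followed by SHR Scrambled (-3.22 ± 3.20, n = 2) and WKY Cocktail (-3.48 ± 0.96, n = 4). SHR Cocktail (-4.84 ± 1.57, n = 5), the single SHR Sham rat (-4.85) and WKY Scrambled (-5.30 ± 2.39, n = 5) came last. Neighbours in this order differed by less than the larger of their SDs. The strain differences were -1.36 under Cocktail, -0.77 over the controls and 2.08 under Scrambled, with adjusted p of 0.365, 0.62 and 0.252 (limma). Under Scrambled it was -0.18 without rat 4600 and 4.34 (adjusted p = 0.0381) without rat 4604. The WKY Sham rats had -0.15, -1.19 and -2.34 in rats 4611, 4613 and 4617. All 5 WKY Scrambled rats were lower, at -6.04, -4.32, -9.14, -3.47 and -3.53 in rats 1700, 4610, 4614, 4615 and 4618. This difference between an injection of control oligonucleotide and an empty needle was -4.07 (SE 1.24), and its adjusted p of 0.0811 missed the threshold (limma, unadjusted p = 0.00427). In the same comparison Il1b differed by -1.21 and Il10 by -0.36. The WKY Cocktail rats were also below every WKY Sham rat for Il1a. Their means were -3.67, -2.83, -4.76 and -2.68 in rats 1701, 4607, 4612 and 4614 (Cocktail minus Sham -2.26, adjusted p = 0.631, limma).

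Of the other inflammatory genes of the panel, Alox5ap, which activates leukotriene synthesis, was higher in SHR under Cocktail (4.44), over the controls (4.27) and under Scrambled (4.07), with an adjusted p of at most 2.22e-05 (limma). The other 4 of these 5 genes, Ltb4r, Ptgr1, Ptgs1 and Ptgs2, did not pass in any of the 3 strain comparisons. So of 3 interleukins, 1 passed lower under Cocktail, 1 lower and 1 higher over the controls, and 1 higher under Scrambled. Of all 19 genes, 2 passed higher and 5 lower under Cocktail (36.8% in all). Over the controls it was 3 and 6 (47.4%), and under Scrambled 3 and 5 (42.1%). The median strain difference of the interleukins was -1.36, -0.77 and 2.08, beside -0.23, -0.53 and -0.51 over all 19 genes. The comparison over the controls and that under Scrambled share the Scrambled rats.

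None of the interleukins passed between Cocktail and a control procedure. In WKY, Cocktail minus Scrambled was 2.52 for Il1b, 1.82 for Il1a and 0.49 for Il10 (adjusted p = 0.631, 0.631 and 0.860, limma). The 95% intervals ran from -0.37 to 5.42, from -0.58 to 4.21 and from -1.08 to 2.06. Il1b was 1.35 without the Cocktail set of rat 4614, Il1a was 0.85 without its Scrambled set, and Il10 ran from -0.17 without rat 1700 to 0.99 without the Scrambled set of 4614. In SHR the same differences were -2.43, -1.62 and -0.40 (adjusted p = 0.332, 0.467 and 0.877, limma), with intervals from -5.98 to 1.11, from -4.61 to 1.37 and from -2.36 to 1.55. Without rat 4600 the SHR differences of Il1b and Il1a were 0.26 and 0.64, and without rat 4604 they were -5.12 and -3.88. Against Sham in WKY, Cocktail differed by 1.31 for Il1b, -2.26 for Il1a and 0.14 for Il10, with adjusted p of 0.704, 0.631 and 0.874 (limma). The Il1b value was 0.14 without the Cocktail set of rat 4614 and -0.12 without rat 4617.

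The difference between the strains in the response to Cocktail against Scrambled was -4.96 for Il1b, -3.43 for Il1a and -0.90 for Il10 (adjusted p = 0.298, 0.298 and 0.676, limma). For Il1b the unadjusted p was 0.0357, and the response difference was -2.27 (adjusted p = 0.977) without rat 4600 and -7.65 (adjusted p = 0.0374) without rat 4604. For Il1a these were -1.17 (adjusted p = 0.977) and -5.69 (adjusted p = 0.0669). Of the 19 genes, 10.5% passed for Cocktail against Scrambled in SHR, among them Ptgs2, the inducible cyclooxygenase, with a difference of -4.04. In SHR Scrambled the Ptgs2 level rested on rat 4600 alone, so this difference sets the Cocktail rats against that rat. For the response difference and the 3 comparisons of procedures within WKY, 0% of the genes passed. At an unadjusted p below 0.05, the response difference held 2 genes, Scrambled against Sham in WKY 2 genes, and Cocktail against either control in WKY 0 genes. Exact permutation tests of rats, adjusted over the 19 genes, called 0 genes in these comparisons within WKY. Before adjustment the smallest p they allow for Il1a and Il10 was 0.00794 for Cocktail against Scrambled, 0.0286 for Cocktail against Sham and 0.0179 for Scrambled against Sham. After adjustment over 19 genes, a gene alone at any of these p-values could not pass, so 0 calls cannot decide for it. Il1a for Cocktail against Sham was at the smallest p, 0.0286, and its adjusted exact permutation p was 0.475.

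The order of the cytokines within a section was mostly the same. Il10 was the highest of the 3 in 50 of 64 sections with all 3 values, and Il1b the lowest in 48. Il1b minus Il10 ranged over sections from -15.22 to 5.42 with a median of -4.99. It was above 0 in 11 of 65 sections: 10 of the 13 from SHR Scrambled rat 4600, and the 1 section of WKY Cocktail rat 4614 named above. Il1a minus Il10 was above 0 in 14 of 103 sections, 9 of them from rat 4600.

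The gap from Il1b to Il10 was narrower in SHR than in WKY. Averaged per rat, Il1b minus Il10 was -3.74 ± 1.68 (SD, n = 4 rats) in SHR Cocktail, 1.48 and -4.65 in the Scrambled SHR rats 4600 and 4604 and -3.40 in the SHR Sham rat. In WKY it was -7.22 ± 2.90 (n = 4) under Cocktail, -10.12 ± 1.17 (n = 4) under Scrambled and -7.12 ± 4.41 (n = 3) in Sham. With procedure as strata, SHR exceeded WKY by 5.18 (exact permutation test of 7 against 11 rats, two-sided p = 0.00238, adjusted over 12 tests 0.02). The strains overlapped through WKY rats 4611 at -2.88 and 4614 at -3.10. Such a difference within a section does not depend on the constant subtracted from it.

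Il1b minus Il1a was also higher in SHR, by 3.0 (exact permutation p = 0.00333, adjusted 0.02), whereas Il1a minus Il10 differed by 1.44 and did not pass (exact permutation, adjusted p = 0.374; 0.56 without rat 4600 and 0.94 without the Scrambled set of rat 4614). With Cocktail rats alone, Il1b minus Il10 was 3.48 higher in SHR (exact permutation of 4 against 4 rats, p = 0.0857, adjusted 0.206, smallest possible p 0.0286). The strain call for Il1b minus Il10 was lost without rat 4600 (3.98, adjusted exact permutation p = 0.0686) or rat 4604 (5.36, 0.06), and that for Il1b minus Il1a also without rat 4596 (2.70, 0.08). With values past the lower strain limit left out, Il1b minus Il10 was 3.75 and Il1b minus Il1a 3.16 higher in SHR (both with an adjusted exact permutation p of 0.04). With gaps set at cycle 30 they were 4.40 and 3.56 (adjusted exact permutation p = 0.173 and 0.0816).

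**Figure D2:**
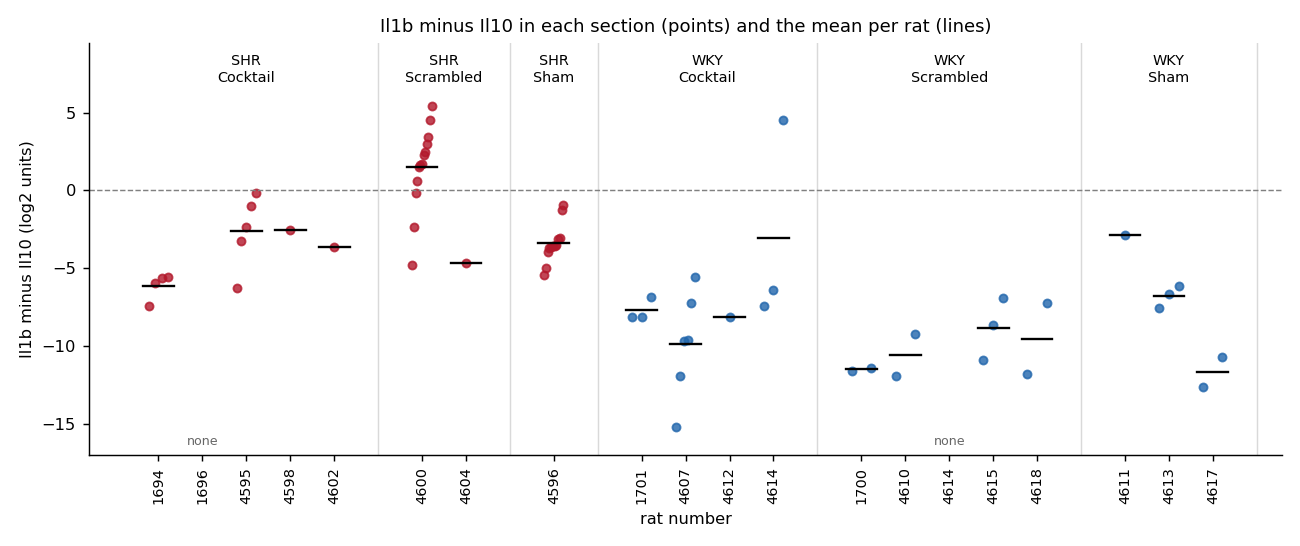
Il1b minus Il10 (log2 units, vertical axis) in each section with both values, by rat number and group, with the mean per rat as a line and 0 (equal cycle numbers) dashed. Of 11 sections above 0, 10 belong to SHR Scrambled rat 4600 and 1 to WKY Cocktail rat 4614.

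Il1b had a value in 37 of 59 SHR sections and 28 of 50 WKY sections. Per rat, the share with a value was 71.1% ± 44.2 (SD, n = 5 rats) in SHR Cocktail and 47.7% ± 23.3 (n = 4) in WKY Cocktail. It was 92.9% and 100% in the 2 SHR Scrambled rats, 60% ± 41.8 (n = 5) in WKY Scrambled, 44.4% in the SHR Sham rat and 72.2% ± 25.5 (n = 3) in WKY Sham. Rats 1696 (SHR Cocktail) and 4614 (WKY Scrambled) had no Il1b value in either of their 2 sections. None of 4 comparisons passed: over all procedures SHR was 18.9 percentage points higher (exact permutation, p = 0.268, adjusted 0.778). SHR rats 4598, 4602 and 4604, each at 100%, had 1 section each. Over pooled sections the shares were 62.7% in SHR and 56% in WKY.

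In WKY the gaps came with late sections. WKY sections without Il1b had a median Ct of 16.4 (median over sections) against 13.2 in those with it. Il1b had a value in 13 of 15 WKY sections with a median Ct up to 13, in 11 of 16 from 13 to 15, in 3 of 8 from 15 to 17 and in 1 of 11 above 17. In SHR the medians were 15.2 without and 14.6 with Il1b, and the corresponding counts were 6 of 10, 17 of 23, 13 of 24 and 1 of 2. Il1a and Il10 had few gaps, 3 each, and those of Il10 all fell in WKY Cocktail. Whether a gap is a transcript below the limit or a failed reaction was not tested.

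**Figure D3:**
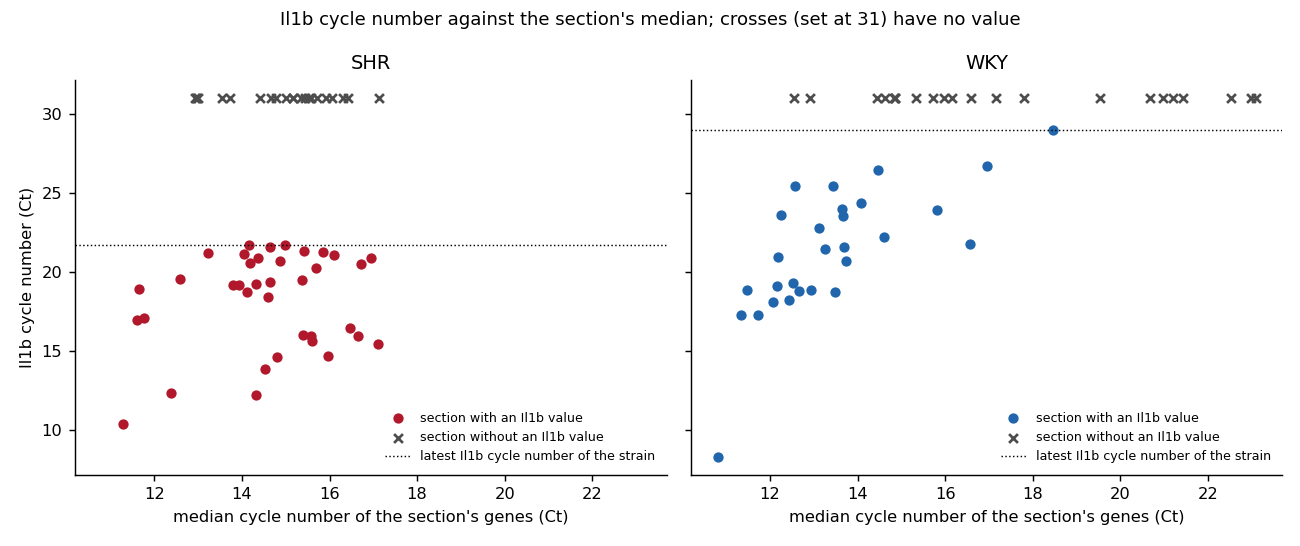
Il1b cycle number (vertical axis) against the median cycle number of the section (horizontal axis) in SHR and WKY, with sections lacking Il1b as crosses set at 31 and the latest Il1b cycle number of the strain dotted. SHR values end at cycle 21.7 and WKY values at 29.0, and crosses in WKY reach the latest section medians.

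Rat 4600, a Scrambled SHR rat with 14 sections, held the highest Il1b mean of all rats. In 12 of its sections Il1a lay between -1.45 and 1.09 (median -0.09) and Il1b between -0.62 and 2.08 (median 0.42). Fos, an immediate-early transcription factor gene, lay between 3.75 and 7.58 there. In the other 2 sections Il1a was -5.92 and -4.60, Il1b was missing in the first and -6.93 in the second, and Fos was -1.05 and 0.58. The 2 low sections were at the levels of the SHR Sham rat 4596, whose Il1b ranged from -7.52 to -3.78. Il10 in rat 4600 ran from -3.75 to 1.96 in the 12 sections and was -1.33 and -2.13 in the others, so it did not separate them.

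Across the sections of rat 4600, Il1a and Il1b followed each other with r = 0.93 (rho 0.82, 13 sections), and with r = 0.81 without the 2 low sections (12 sections). Fos went with Il1a at r = 0.88 (14 sections) and 0.41 without those 2, and with Il1b at 0.84 (13 sections) and 0.62. In the SHR Sham rat, which had the most sections, r between Il1a and Il1b was 0.18 (12 sections). In WKY Cocktail rat 4607 it was 0.19 (6 sections). Sections of 1 rat share their source and these correlations are descriptions of it.

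**Figure D4:**
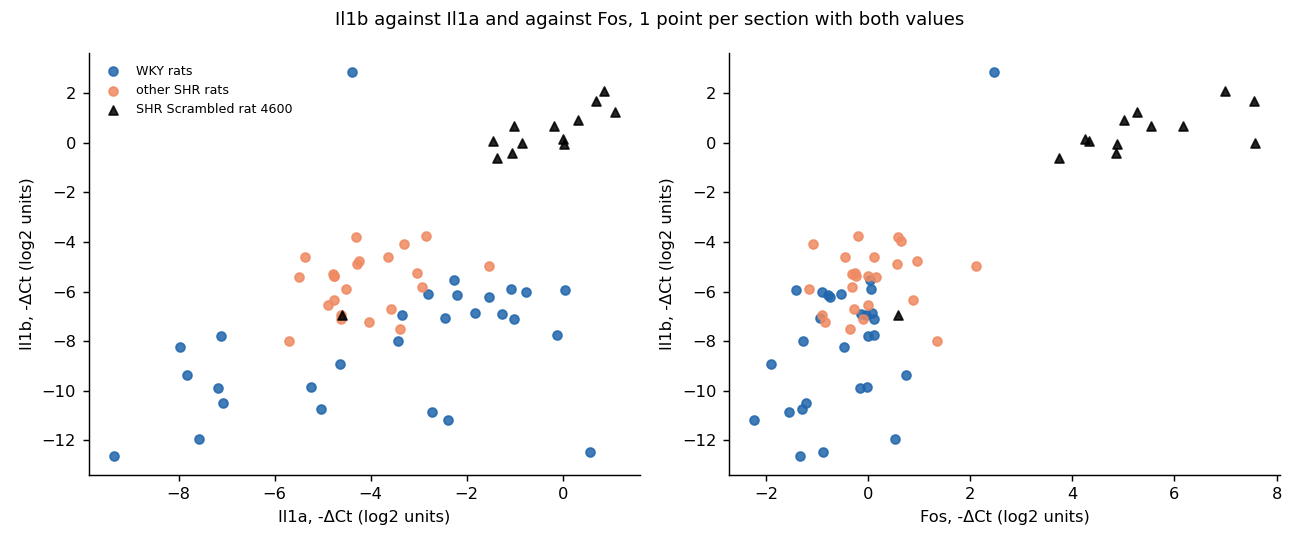
Il1b against Il1a (left) and against Fos (right), all in minus ΔCt (log2 units), 1 point per section, with SHR Scrambled rat 4600 as triangles. Of the 13 triangles, 12 lie apart from all other SHR sections, with Fos from 3.75 to 7.58.

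Within rats, Il10 moved most closely with EiF4e, the messenger of the cap-binding translation factor. Deviations of sections from their rat's mean correlated at r = 0.77 over 95 sections of 13 rats, at 0.94 on raw cycle numbers, and at 0.94 in SHR (54 sections) and 0.60 in WKY (41 sections). Raw cycle numbers share the RNA input of the section, and normalised values share its constant. In the 5 rats with the most sections, r was 0.94 in 4596, 4600 and 4595 and 0.95 in 4607 and 4612. WKY Cocktail rat 1701 went the other way with -0.68 (6 sections). Next were Jun, the partner of Fos in AP-1, at 0.55 and Ace, the angiotensin-converting enzyme, at 0.45. For Jun, r was 0.05 in rat 4596 (23 sections) and -0.92 in rat 1701. In rats 4600, 4595, 4607 and 4612 it was 0.69, 0.85, 0.98 and 0.86. The lowest was Actb, a reference transcript, at -0.45.

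Il10 minus EiF4e, averaged per rat, ran from -4.56 to -3.17 in the 8 SHR rats, in which EiF4e itself averaged between 1.84 and 3.09. In the 12 WKY sets, in which rat 4614 enters under both its procedures, it ran from -2.59 to -1.37, apart from Scrambled rats 4610 at -3.56 and 1700 at -5.03. Rat 1700 is the one with the single low Il10 section. EiF4e did not pass between the strains (0.19 under Cocktail, -0.53 over the controls, adjusted p = 0.764 and 0.341, limma). This pair was chosen after the correlation was seen and is given without a test.

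**Figure D5:**
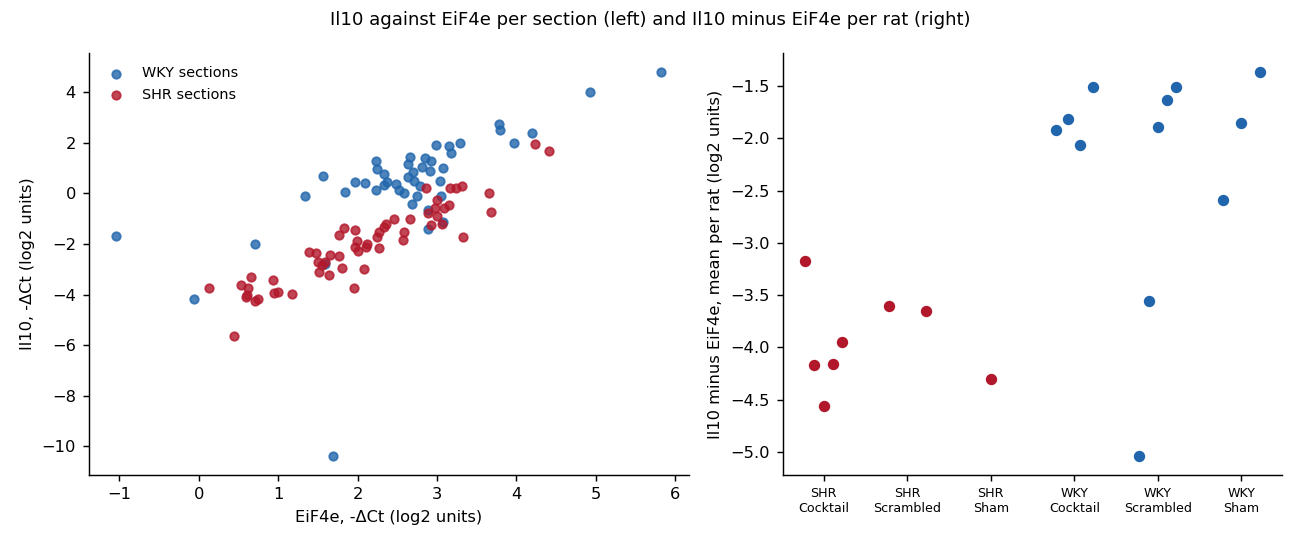
Il10 against EiF4e in each section (left, minus ΔCt in log2 units) and the mean of Il10 minus EiF4e per rat by group (right, log2 units). SHR rats lie between -4.56 and -3.17, and 10 of 12 WKY sets (rat 4614 appears in both its groups) lie between -2.59 and -1.37.

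The interleukin-1 genes had weaker partners. For Il1b the highest pooled within-rat r was with Fos (0.51, 52 sections of 9 rats), Il1a (0.33) and Ptgs1, the constitutive cyclooxygenase (0.25), and the lowest was with Th, tyrosine hydroxylase of catecholamine neurons (-0.33). Without rat 4600, r was 0.27 with Fos and 0.16 with Il1a. For Il1a the highest were Il1b (0.33, 51 sections), Agtr1a, the angiotensin receptor gene (0.26), and Il10 (0.21), and the lowest was Rgs4, a regulator of G-protein signalling (-0.32). Il1b and Il10 had r = -0.02 over 52 sections. By rank correlation (rho) the order for Il1b differed. It was 0.38 with Il1a, 0.26 with Agtr1a and 0.24 with Fos, and lowest with Ptgr1 at -0.47.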

How the data were processed

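Ct values were deposited for each section, read by the Fluidigm analysis software per the labels' protocols, and are treated as a score. The authors also deposited normalised values on a log2 scale (minus ΔCt), whose direction was found from the raw table. The authors' constant was the section's median Ct in 59 of 59 SHR and 1 of 50 WKY sections. In 44 WKY sections the normalised values equalled, within 1e-06 after subtraction of a constant, raw values listed under a different section of that rat, and were paired with those. Both tables lack 160 of 2071 values.

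Sections were averaged per rat and procedure, and the 6 groups were fitted with limma 3.58.1 (R 4.3.3), two-sided, with Benjamini-Hochberg adjustment over 19 genes and a threshold of 0.05. Groups of 1 or 2 rats borrow the common spread. Differences between 2 genes and shares of sections with a value were compared by exact permutation of rats. Within-rat correlations use rats with at least 3 sections. The named genes are the 3 members, other inflammatory genes that passed, and for each member the 3 genes with the highest and the 1 with the lowest within-rat correlation; Fos, EiF4e and rat 4600 beyond that were chosen after their values were seen. The members and lists were chosen with earlier results of these data known. The code was tested on simulated data. The values of 1 gene are not reported here. Figures were drawn with matplotlib 3.10.9.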

Additional observations from a re-analysis of the deposited data

Results flagged for a closer look

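Among 21 sets of 4 or 5 rats examined (a gene or a difference of genes in a group), 1 rat stood far from the others of its group; chance flags about 1 set in 20. It was rat 4614 in WKY Scrambled, whose Il1a minus Il10 was -11.34, while the other 4 rats lay between -4.72 and -3.18. Its 2 sections gave -11.22 and -11.46, with Il1a at -9.23 and -9.06, the lowest mean of any rat, and Il10 at 1.98 and 2.40. Both sections lacked Il1b. The same number under WKY Cocktail gave -2.41 over 4 sections.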

How the results depend on the processing

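No paired analysis was possible because the numbers in the labels count sections within a group and rats of different groups share none, except rat 4614. The authors' constants differ between strains: centring raw values on the section median shifted the median strain difference of all genes by -0.012 under Cocktail, -0.28 over the controls and -0.30 under Scrambled; centring on Actb and EiF4e shifted it by 0.019, 0.24 and 0.50, and no normalisation by 1.37, -0.79 and -0.22. Among settings other than leaving out a rat, 320 values kept direction and call, 20 lost the call, 17 gained it and 32 changed sign. Of the 20, the permutation of Il1b under Scrambled could not pass. Leaving out 1 rat, these counts were 365, 13, 4 and 11. Only 6 of the 40 results were called in the main setting, and only these could lose a call. In settings other than leaving out a rat, Il10 lost its call in 4 and kept it in 9 under Cocktail. Over the controls, Il10 lost it in 6 and kept it in 7, and Il1b in 5 and 8. Under Scrambled, Il1b lost it in 3 and kept it in 10. Il1b minus Il10 and Il1b minus Il1a each lost it in 1 and kept it in 5. The causes were not tested. An exact permutation test of the response difference was not run, since that contrast is no exchange of 2 groups.

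Strain differences. Under Cocktail, Il10 (-2.22) lost its call with gaps at the lowest value (-0.96) or the cycle limit (-1.13), without normalisation (-1.51) and without rats of 1 section (-2.26), and ranged from -2.58 to -1.99 leaving out a rat. Over the controls it was -2.16 with gaps filled either way, -1.90 by permutation, -1.92 against Actb and EiF4e, -2.95 unnormalised and -2.35 without rats of 1 section, all without a call, and -2.49 to -1.91 leaving out a rat. Rat 4596, the only SHR Sham rat, was never left out over the controls, so the ranges given for the controls do not cover it. Under Scrambled it passed without late sections (-2.04) and without values past the lower limit (-2.04), and ranged from -1.98 to -0.82. Il1b over the controls lost its call by permutation (5.14), with gaps at the limit (3.15) or lowest value (3.47), unnormalised (2.81) and without values past the limit (2.97), range 3.21 to 5.90; under Scrambled by permutation (6.64, where 2 against 4 rats cannot give a p below 0.0667), with gaps at the limit (7.20) and unnormalised (4.91), range 3.95 to 9.33. Il1a changed sign under Cocktail unnormalised (0.0081). It also did so over the controls by permutation (0.12), weighted by sections (0.20), with the rat as a random block (0.016) and without rats of 1 section (0.36), range -1.90 to 0.36. Under Scrambled it passed weighted (3.88), with the block (3.55) and without rats of 1 section (4.34), range -0.18 to 4.34. Over the controls, the permutation test weighted Scrambled and Sham by numbers of rats, whereas limma weighted them equally. Its differences for the 3 genes therefore differ from those of limma.

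Procedures. Weighting rats by sections, or sections with a random rat block, lets the 14 sections of rat 4600 count more. Cocktail minus Scrambled in SHR then passed for Il1a (-3.66, -3.32) and Il1b (-5.07, -4.60), and so did the response difference for Il1a (-5.32, -5.00) and Il1b (-7.09, -6.83). Leaving out a rat, Il1a in SHR ranged from -3.88 to 0.64, Il1b from -5.12 to 0.26 and the Il1b response from -7.65 to -2.27; unnormalised, Il1a in SHR was 0.047 and Il10 1.20. The Il10 response turned to 0.19 and 0.36 with gaps at the limit and lowest value and to 0.033 unnormalised. In WKY, Il1a Scrambled minus Sham passed against Actb and EiF4e (-4.72), unnormalised (-5.41), with the block (-3.84), without late sections (-4.75) and without rat 4615 (-4.53), range -4.63 to -3.11. Il10 Cocktail minus Scrambled turned to -0.065 with section medians, -0.60 and -0.76 with gaps at the limit and lowest value, -0.13 without values past the limit and -0.14 without late sections, range -0.17 to 0.99. Il10 Scrambled minus Sham turned to 0.37 and 0.20 in the latter 2 settings, range -0.86 to 0.30. Il10 Cocktail minus Sham turned to -0.13 with section medians, -0.95 and -1.12 with filled gaps, -0.032 and -0.18 against the reference pair and the median, and -0.52 unnormalised, range -0.012 to 0.32. Il1b Cocktail minus Sham turned to -0.51 with gaps at the lowest value, range -0.12 to 2.20.

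Differences of genes and gaps. With gaps at the cycle limit, the strain differences lost their calls for Il1b minus Il10 (4.40) and Il1b minus Il1a (3.56); leaving out a rat they ranged from 3.98 to 5.92 and from 2.68 to 3.45. Il1a minus Il10 under Cocktail turned to -0.20 and -0.26 with gaps at the limit and lowest value. In WKY, Cocktail minus Scrambled turned to -0.78 and -0.95 for Il1b minus Il1a in those settings and to -0.79 without rat 4614 for Il1a minus Il10, range -0.19 to 2.03. Scrambled minus Sham turned to -0.23 for Il1b minus Il1a without values past the limit. The share of sections with Il1b turned to 9.40 points for Cocktail minus Scrambled in WKY without values past the limit, and to 6.67 for Scrambled minus Sham without late sections, range -23.3 to 2.78. Within-rat r changed sign on raw cycle numbers for Il1a and Rgs4 (0.47), Il1b and Th (0.051) and Il10 and Actb (0.69). Gaps at the cycle limit and the common limit were chosen after seeing the data.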
